A study of Homo sapiens with 26 samples.

Results

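The regions described here are 652 of 10740 sites of glucocorticoid receptor (GR) binding at which GR signal was at least 2-fold lower with interleukin-1β plus budesonide than with budesonide alone, in cells infected with a control virus. The regions were chosen by the log2 difference between those 2 groups, at -1 or lower, a limit that 6.07% of all regions met, so that difference is given below as a description only. The same comparison in cells whose NF-κB was inhibited, the response to budesonide in those cells, and the DNA sequence of the regions were not used by the rule. The 652 regions are called the weakened regions below.

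GR was measured by chromatin immunoprecipitation with sequencing in A549, an established human lung carcinoma line with features of the alveolar epithelium. An adenovirus gave the cells either IκBαΔN (Ad-IκBαΔN), an inhibitor of NF-κB, or, as the control, green fluorescent protein (Ad-GFP). The genotype of the cells was otherwise unaltered. All groups were kept overnight without serum. They were then left untreated, given 300 nM budesonide (Bud), or given budesonide with 1 ng/ml interleukin-1β (IL1B+Bud), for 1 h. The labels list 2 libraries for each of the 6 groups, from 2 independent experiments, but the deposited table has 1 value per region and group. No difference therefore has a replicate error, and no test between groups was possible. A region was called higher or lower when its log2 difference was at least 1 in size, and each count is set beside the share of all 10740 regions that met the same limit. Values are mean GR coverage per base over 400 bp, called signal below, and folds and log2 differences are on the log2(signal + 1) scale. The linear signals fell on whole multiples of a step that differed between groups, 1 with Bud under either virus, 3 with IL1B+Bud in Ad-GFP and 1.5 with IL1B+Bud in Ad-IκBαΔN cells, so the groups may not share 1 scale. With other scalings and another pseudocount the rule took between 379 and 4695 regions. With a pseudocount of 8, 13 of 60 named regions were no longer 2-fold lower in Ad-GFP cells, at differences from -0.99 to -0.58. They were those of ZBTB7B, STAU2, NIBAN2, GJE1, ASPH, PER1, ACSL1, CDH1, FOXO3, KLF9, PPARA, STOM and TGFBR3, and at PER1 this was the region nearer its start. A GR signal does not report transcription, so the labelled cell type could not be checked against expressed markers.

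Budesonide is a synthetic glucocorticoid. It binds GR, which then enters the nucleus and binds DNA, above all at the glucocorticoid response element (GRE), a palindrome on which GR sits as a dimer, and also near other factors such as AP-1. Interleukin-1β frees the transcription factor NF-κB from its inhibitor IκBα by having that inhibitor degraded. IκBαΔN lacks the end of the protein that signals this degradation, so it keeps NF-κB in the cytoplasm. In airway epithelium glucocorticoids are used to quiet inflammatory genes that NF-κB drives, and they also switch on genes of their own through GREs.

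The weakened regions held GREs more often than other GR regions, and the closeness of the GRE went with their behaviour under NF-κB inhibition. Sequences from hg38 are printed here for that reason, on the forward strand, with capitals marking the best match to the GRE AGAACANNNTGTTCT. A match was scored by its mismatches in the 12 fixed bases, and the palindrome reads the same on both strands. The first line below is the weakened region with the highest budesonide signal, 16.4 kb upstream of PRR20G, whose GRE had 1 mismatch. Of 9 weakened regions with no mismatch, 5 follow, named by the gene they lie in or nearest to.
PRR20G (chr3:127304321-127304380): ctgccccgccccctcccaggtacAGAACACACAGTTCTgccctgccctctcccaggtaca
ANGPTL4 (chr19:8374342-8374401): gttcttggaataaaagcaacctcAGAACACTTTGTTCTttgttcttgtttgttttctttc
FKBP5 intron (chr6:35602059-35602118): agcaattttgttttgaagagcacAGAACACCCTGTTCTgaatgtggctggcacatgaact
ME3 intron (chr11:86547945-86548004): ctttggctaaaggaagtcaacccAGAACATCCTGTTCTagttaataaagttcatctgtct
NEDD4L intron (chr18:58285897-58285956): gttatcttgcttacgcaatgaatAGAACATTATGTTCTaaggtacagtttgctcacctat
EPB41L1 intron (chr20:36098078-36098137): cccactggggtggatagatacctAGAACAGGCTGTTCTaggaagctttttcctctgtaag
The next lines are for contrast. The GJE1, PER1 and NKX1-1 regions were among the 6 weakened regions with the highest log2 difference of IL1B+Bud from Bud in Ad-IκBαΔN cells, and the LLGL2, UPK1B, MCHR1 and NIBAN2 regions among the 6 with the lowest. The 6 highest were mixed in their GRE match, with 1 mismatch at GJE1 and PER1, 2 at ETV3, 3 at PTPRO and ASPH and 4 at NKX1-1. The 6 lowest had 3 mismatches at LLGL2, HDDC2 and STAU2 and 4 at UPK1B, MCHR1 and NIBAN2.
GJE1 (chr6:141404032-141404091): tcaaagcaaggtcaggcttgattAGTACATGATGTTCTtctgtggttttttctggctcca
PER1 (chr17:8154437-8154496): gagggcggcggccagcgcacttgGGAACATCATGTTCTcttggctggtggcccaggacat
NKX1-1 (chr4:1458189-1458248): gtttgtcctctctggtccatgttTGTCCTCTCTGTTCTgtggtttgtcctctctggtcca
LLGL2 intron (chr17:75549458-75549517): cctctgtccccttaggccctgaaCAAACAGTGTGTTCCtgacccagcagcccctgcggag
UPK1B intron (chr3:119195371-119195430): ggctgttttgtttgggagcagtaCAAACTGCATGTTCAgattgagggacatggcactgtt
MCHR1 (chr22:40732839-40732898): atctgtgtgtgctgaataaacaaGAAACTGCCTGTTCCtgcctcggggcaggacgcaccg
NIBAN2 intron (chr9:127574828-127574887): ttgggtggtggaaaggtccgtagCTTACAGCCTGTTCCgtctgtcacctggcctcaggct

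The weakened regions were strong budesonide sites. In Ad-GFP cells their median signal was 6.88 untreated, 56.4 with Bud and 22.5 with IL1B+Bud. Over all 10740 regions the medians were 7.58, 21.7 and 45.7, so the weakened regions stood above the typical region with Bud and below it with IL1B+Bud. In Ad-IκBαΔN cells the medians of the weakened regions were 7.49, 49.7 and 45.8, against 7.79, 21.6 and 23.6 over all regions. With IL1B+Bud the median region thus held 40.7% of its Bud signal in Ad-GFP cells and 93.5% in Ad-IκBαΔN cells.

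**Figure D1:**
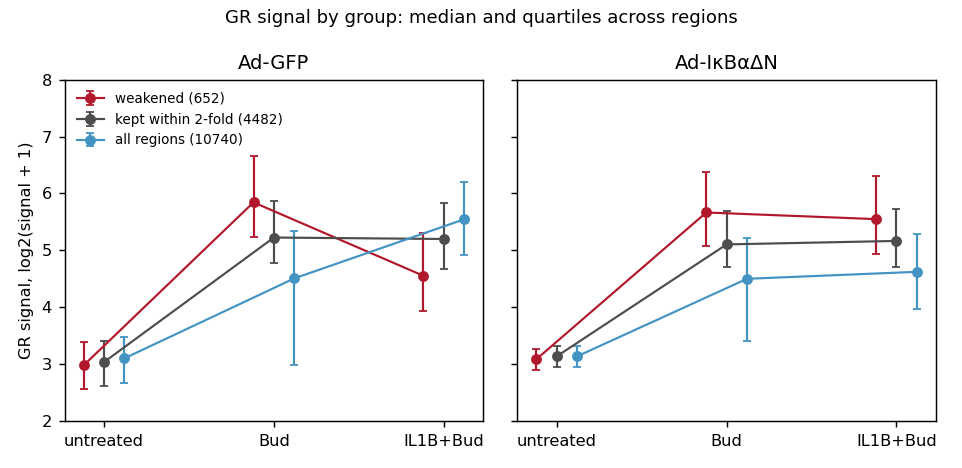
Median GR signal on the log2(signal + 1) scale (vertical axis) in the 3 treatments of Ad-GFP cells (left) and Ad-IκBαΔN cells (right), for the 652 weakened regions, 4482 budesonide regions that stayed within 2-fold with IL1B+Bud in Ad-GFP, and all 10740 regions; bars span the quartiles across regions and are not an error. The weakened regions stood highest with Bud in both viruses and dropped below the other sets with IL1B+Bud in Ad-GFP alone, as the rule requires of that group.

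With budesonide alone, GR signal at these regions was above the untreated level under either virus. In Ad-GFP cells 645 of 652 were at least 2-fold higher with Bud than untreated, against 57.9% of all regions, with a median log2 difference of 2.95. The Ad-GFP Bud value is part of the rule. In Ad-IκBαΔN cells, whose values the rule did not use, 642 of 652 were at least 2-fold higher, against 59.3% of all regions. The median there was 2.58, and 635 regions met the limit in both viruses. Of the 4482 budesonide regions that stayed within 2-fold in Ad-GFP cells, 96.8% met this limit in Ad-IκBαΔN cells, with a median of 2.00. Bud signal at the weakened regions was close under the 2 viruses, so the 642 is not independent of the rule either. The share of regions that were weakened grew with the Ad-GFP budesonide signal, a quantity that enters the rule. It was 2.30% of the 8082 regions under a signal of 40, 13.8% of the 1753 from 40 to 80 and 24.8% of the 905 at 80 or more.

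Lower GR signal did not mean GR signal back at the untreated level. With IL1B+Bud in Ad-GFP cells, 473 of 652 weakened regions were still at least 2-fold above untreated cells, against 93.7% of all regions, and 25 were below their untreated value. In Ad-IκBαΔN cells 625 of 652 were at least 2-fold above untreated, against 69.1% of all regions.

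In Ad-IκBαΔN cells, where NF-κB was inhibited, added IL1B left most weakened regions near their budesonide signal, as it did most other regions. The median log2 difference of IL1B+Bud from Bud was -0.10, with quartiles of -0.46 and 0.27, while over all regions the median was 0.26. The signal was within 2-fold at 612 of the 652, and at 9603 of all 10740 regions. It was at least 2-fold lower at 24, or 3.68%, against 0.94% of all regions, and at least 2-fold higher at 16, or 2.45%, against 9.65% of all regions. With the other scalings and the pseudocount of 8 the 2 counts ran from 15 to 175 and from 0 to 10, and the median from -0.66 to -0.08. The share that was 2-fold lower then ran from 2.30% to 26.8%, against 0.41% to 10.0% of all regions. For comparison, 4482 budesonide regions had stayed within 2-fold with IL1B+Bud in Ad-GFP cells. In Ad-IκBαΔN cells 4301 of them were within 2-fold, 1.58% were 2-fold lower and 2.45% 2-fold higher, with a median of -0.005. The weakened regions lay low among all regions in Ad-IκBαΔN cells, though the median of those 4482 was also below the all-region median. Of the 652 weakened regions, 488 were below that all-region median, or 401 after quantile normalization, and 111 were among the 652 lowest. Of the 101 regions 2-fold lower in Ad-IκBαΔN cells, 24 were weakened regions.

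**Figure D2:**
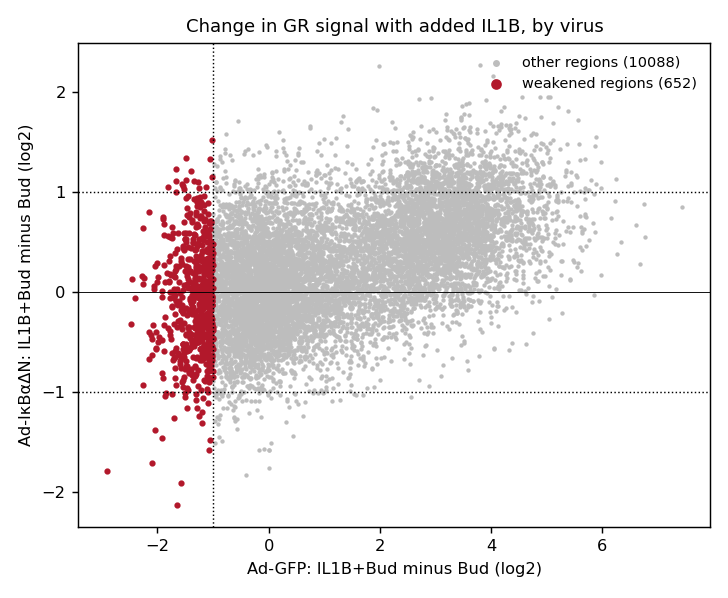
Change in GR signal from Bud to IL1B+Bud, as a log2 difference, in Ad-GFP cells (horizontal axis) and Ad-IκBαΔN cells (vertical axis) for the 652 weakened regions (red) and the other 10088 regions (grey), 1 point per region; dotted lines mark 2-fold. The weakened regions lie left of -1 by the rule. On the vertical axis 612 of them lie between the dotted lines, as do 8991 of the other regions.

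How far a region was weakened in Ad-GFP cells said little about its response in Ad-IκBαΔN cells. Across the 652 weakened regions the 2 differences had a Spearman rho of 0.04, against 0.52 over all 10740 regions. The first value was computed within the narrow Ad-GFP range that the rule leaves, -2.90 to -1.0. The response was higher in Ad-IκBαΔN than in Ad-GFP at 645 of 652 regions, by a median of 1.19, and by at least 1 at 411, against 7.98% of all regions. With IL1B+Bud itself, GR signal was higher in Ad-IκBαΔN at 633 regions, and at least 2-fold so at 316, against 5.97% of all regions. Both of these comparisons use the Ad-GFP IL1B+Bud value that chose the regions.

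With budesonide alone the viruses were close to each other at these regions. Signal was lower in Ad-IκBαΔN at 594 of 652, by a median log2 difference of -0.21. Over all 10740 regions it was lower at 5091, with a median of 0.02. In the 4482 budesonide regions that stayed within 2-fold it was lower at 3369, with a median of -0.13. The Ad-GFP Bud value is part of the rule, so the difference at the weakened regions is not independent of it. No weakened region was 2-fold lower in Ad-IκBαΔN cells (0.0186% of all regions) and 1 was 2-fold higher (4.02% of all regions). That 1, in an intron of FAM104A and linked to C17orf80, had Bud signals of 120.3 under Ad-GFP and 268 under Ad-IκBαΔN. When the Bud value of Ad-IκBαΔN cells was used as the baseline in place of that of Ad-GFP cells, the median difference of IL1B+Bud in Ad-GFP cells was -1.07. It was at least 2-fold lower at 386 of the 652, against 3.83% of all regions, a count that reuses the IL1B+Bud value of the rule and so is largely fixed by it.

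Among single regions, the lowest Ad-GFP response was in an intron of HDDC2 (chromosome 6, 125220772 to 125221171). Its signal was 5.40 untreated, 86.0 with Bud and 10.6 with IL1B+Bud in Ad-GFP cells, a log2 difference of -2.90. In Ad-IκBαΔN cells it was 8.93, 67.4 and 18.7, a difference of -1.79. This region was thus 1 of the 24 weakened regions that were at least 2-fold lower with IL1B+Bud under either virus.
The intron of ELMO1, an adaptor that activates Rac in cell migration, had 7.90, 144 and 25.1 in Ad-GFP cells, against 8.06, 131 and 105 in Ad-IκBαΔN cells. The region 75 kb upstream of DGCR6 had 2.65, 136 and 23.9 against 3.09, 108 and 119. An intron of TBC1D2, a Rab GTPase-activating protein, went from 53.3 with Bud to 9.27 with IL1B+Bud in Ad-GFP cells, level with its untreated 9.48. In Ad-IκBαΔN cells it held 47.4 and 45.6 over an untreated 7.07. With IL1B+Bud in Ad-IκBαΔN cells, the ELMO1 region thus held 79.7% of its Bud signal, the DGCR6 region 109.9% and the TBC1D2 region 96.1%, while in Ad-GFP cells each held less than 20%.

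At DECR1, which encodes a mitochondrial reductase used in the oxidation of unsaturated fatty acids, the viruses parted further. An intronic region 0.365 kb from its transcription start (chromosome 8, 90001571 to 90001970) had signals of 8.43, 507 and 105 in Ad-GFP cells. In Ad-IκBαΔN cells they were 9.27, 643 and 1001, so IL1B+Bud was the lowest treated value under the control virus and the highest under the inhibitor. The intron of CNST had the same order, with 80.5 and 17.4 in Ad-GFP, against 66.6 and 117 in Ad-IκBαΔN cells for Bud and IL1B+Bud. Others of the 12 lowest were nearest to FIBCD1, DRD2, CDY2B, AKR1D1 and CACNA1I, with Ad-GFP differences from -2.27 to -2.14. Their Ad-IκBαΔN differences ran from -0.94 at DRD2 to 0.16 at FIBCD1. The Ad-GFP value at CDY2B rests on a low signal, 3.08 with IL1B+Bud.

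The weakened regions with the highest budesonide signal were among the strongest GR sites of the data. The PRR20G region whose GRE is printed above (chromosome 3, 127304227 to 127304626) had 4.79 untreated, 1492 with Bud and 505 with IL1B+Bud in Ad-GFP cells. In Ad-IκBαΔN cells it had 6.46, 1194 and 1150.2. The region 2.89 kb from the start of ZFP36, which encodes a protein that destabilises inflammatory mRNAs, had 19.9, 997 and 451 in Ad-GFP, against 9.31, 883 and 825 in Ad-IκBαΔN cells. Both sites kept over 90% of their Bud signal in Ad-IκBαΔN cells, at 96.3% and 93.5%, and less than 50% in Ad-GFP cells.
Regions in ZBTB7B, SAP30BP and DNAH5 were partly lower in Ad-IκBαΔN cells too, with 67.2%, 72.8% and 72.5% of the Bud signal left there, beside 49.7%, 41.6% and 48.0% in Ad-GFP. The region nearest PTPN1, a tyrosine phosphatase gene, went the other way. It had 389.8 with Bud and 136 with IL1B+Bud in Ad-GFP cells, and 336 and 685 in Ad-IκBαΔN cells.

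The motif content of the regions differed in share from that of other GR sites, though the sets overlapped. A GRE with at most 2 mismatches was found in 213 weakened regions, or 32.7%, against 14.7% of all regions. In 4482 regions that were 2-fold higher with Bud and stayed within 2-fold with IL1B+Bud in Ad-GFP, called kept, the share was 21.8%. In 1090 budesonide regions that were at least 2-fold higher again with IL1B+Bud, called boosted, it was 7.89%. At least 2 such sites were found in 23 weakened regions, or 3.53%, against 0.959% of all regions. The match lay within 50 bp of the centre of the region in 89.7% of the 213, against 79.5% of the 1367 other regions with a match.

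The κB motif, bound by NF-κB, was found in 7 weakened regions, or 1.07%, against 3.17% of kept, 22.1% of boosted and 21.3% of all regions. The AP-1 motif TGACTCA was found in 12.1% of weakened regions, against 21.4% of kept, 29.5% of boosted and 22.8% of all regions. The weakened regions thus had the highest GRE share and the lowest κB and AP-1 shares of these sets. Motifs of FOXA (TGTTTAC), TEAD (GGAATGT) and C/EBP (TTGCNNAA) differed less, at 14.3%, 13.0% and 25.8% of weakened regions against 13.1%, 10.8% and 29.3% of all regions. All motifs were searched on both strands, and a match is a description of the letters, not evidence of binding.

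**Figure D3:**
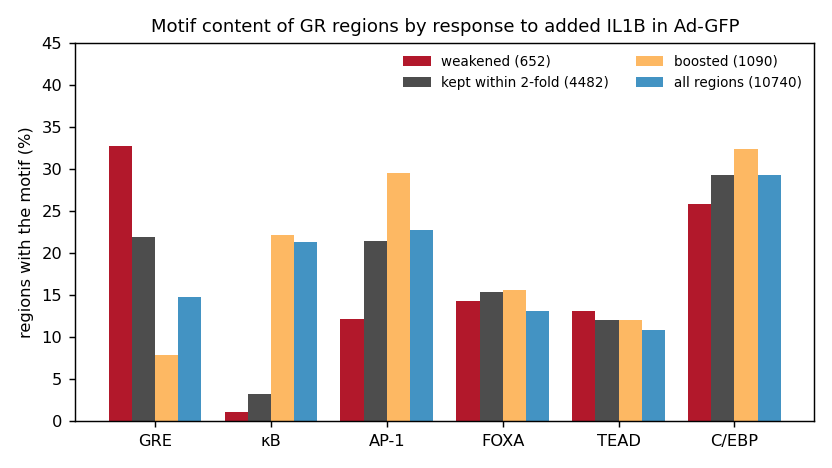
Share of regions (vertical axis, percent) with a match to each of 6 motifs (horizontal axis), for weakened, kept, boosted and all regions. The GRE was in 32.7% of weakened regions and 7.89% of boosted regions, while the κB motif was in 1.07% and 22.1%.

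The GRE share was alike across the range of budesonide signal. Among regions with an Ad-GFP Bud signal under 40, from 40 to 80 and at 80 or more, a GRE was found in 33.3%, 31.8% and 33.0% of weakened regions and in 23.1%, 19.8% and 21.0% of kept regions. The AP-1 shares in the same order were 8.06%, 13.6% and 13.8% of weakened and 19.3%, 23.2% and 26.3% of kept regions.

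Within the weakened regions, the closeness of the best GRE match went with the response in Ad-IκBαΔN cells, a measure the rule did not use. The 9 regions with no mismatch had a median log2 difference of 0.58 between IL1B+Bud and Bud, and all 9 were above 0, from 0.21 to 0.89. The median was 0.19 in the 37 regions with 1 mismatch, -0.03 in the 167 with 2, -0.12 in the 276 with 3 and -0.33 in the 163 with 4 or more. Signal was higher with IL1B+Bud in 76.1% of regions with at most 1 mismatch and in 30.7% of those with 4 or more. The Spearman rho of mismatches with the response was -0.26 over the 652 regions, which share the same 2 pairs of libraries.
In Ad-GFP cells, where the rule confines the values, the medians of the same 5 classes spanned 0.05 on the log2 scale. GC content had a rho of -0.01 with the Ad-IκBαΔN response, and the Ad-GFP Bud signal -0.09.

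**Figure D4:**
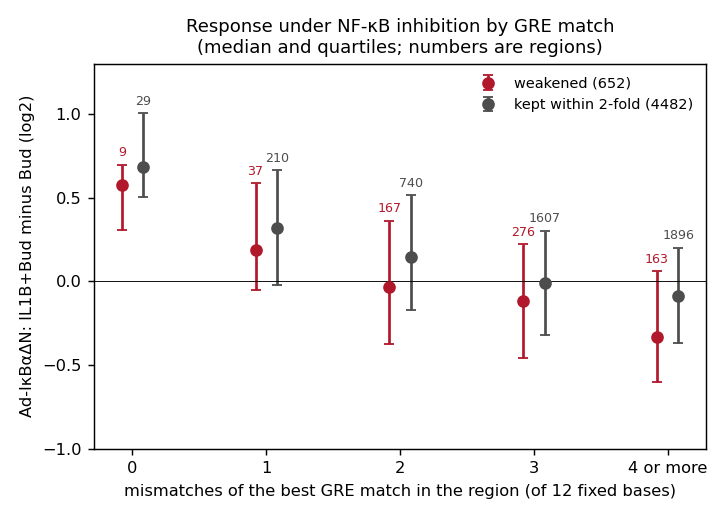
Log2 difference between IL1B+Bud and Bud in Ad-IκBαΔN cells (vertical axis) by mismatches of the best GRE match in the region (horizontal axis), for weakened and kept regions; points are medians, bars span the quartiles across regions and are not an error, and numbers count regions. In weakened regions the median runs from 0.58 with no mismatch to -0.33 with 4 or more.

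The same order was seen in the kept regions. Their medians in Ad-IκBαΔN cells were 0.68, 0.32, 0.15, -0.01 and -0.09 from no mismatch to 4 or more, with a rho of -0.21, beside -0.25 for the Ad-GFP Bud signal in those regions. From 3 mismatches to 4 or more the order did not hold in the boosted regions, with medians of 0.01 and 0.10, or over all regions, with 0.17 and 0.32. In weakened regions with an Ad-GFP Bud signal of 80 or more, the median was 0.33 with at most 1 mismatch and -0.44 with 4 or more. From 40 to 80 the medians were 0.45 and -0.30. Under 40 they were 0.30 and -0.11, and there regions with 3 mismatches, at -0.12, did not stand above those with 4 or more. The distance of these medians from 0 depends on how the groups were scaled. Once the steps were divided out, regions with at most 1 mismatch had a median of -0.25 and those with 4 or more -0.90, so the order held and the sign of the first did not.

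The 9 regions with a full GRE show this in single sites. The region 11.1 kb from the start of ANGPTL4, a secreted inhibitor of lipoprotein lipase, had 4.82 untreated, 67.3 with Bud and 22.9 with IL1B+Bud in Ad-GFP cells, against 5.65, 48.0 and 78.5 in Ad-IκBαΔN cells. An intron of FKBP5 (chromosome 6, 35601885 to 35602284), which encodes a co-chaperone of GR and is a classical glucocorticoid target, had 5.02, 271 and 96.3 against 8.83, 204 and 288. The intron of NEDD4L, a ubiquitin ligase that acts on the epithelial sodium channel, had 5.09, 159.9 and 62.3 against 6.34, 124 and 186. In each of these, IL1B+Bud gave less GR signal than Bud in Ad-GFP cells and more in Ad-IκBαΔN cells.
The regions in ME3, a mitochondrial malic enzyme, and near TP63, a p53-family factor of basal epithelia, had the highest Ad-IκBαΔN differences of the 9, at 0.80 and 0.89. Those of ZNF385B and EPB41L1 had the lowest, at 0.21 and 0.26.

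The extremes in Ad-IκBαΔN cells differed in the same feature. Of the 16 weakened regions that were 2-fold higher there, 10 had a GRE with at most 2 mismatches and 2 had 4 or more. Of the 24 that were 2-fold lower, 3 had at most 2 and 10 had 4 or more. Among all 652 weakened regions 213 had at most 2 and 163 had 4 or more, and among all 10740 regions 1580 and 5900. With the steps divided out, the 6 highest and the PTPN1 region were no longer 2-fold higher, at 0.44 to 0.95.
The lowest was an intron of LLGL2, a cell polarity gene, with, for Bud and IL1B+Bud, 283 and 89.8 in Ad-GFP, against 241 and 54.4 in Ad-IκBαΔN cells. An intron of UPK1B, a uroplakin gene, had 71.5 and 23.5 against 65.8 and 16.8. The region near MCHR1 had 96.2 and 21.6 against 74.3 and 22.0. HDDC2, STAU2 and NIBAN2 made up the rest of the 6 lowest. Lower GR signal with IL1B under either virus was not confined to these 6. In Ad-IκBαΔN cells 24 weakened regions were 2-fold lower and 375 were below 0.
At the other end, the region nearest GJE1, though 729 kb from it, had 11.8 and 5.29 in Ad-GFP, against 10.5 and 31.8 in Ad-IκBαΔN cells. An intron of RERG, nearest to the start of PTPRO, had 38.1 and 12.9 against 38.2 and 98.0. The region nearest ETV3, an ETS-family repressor, held 6 GRE matches and had 173 and 65.2 against 159 and 369.

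By gene, 461 of the 652 regions had a protein-coding gene start within 100 kb and were linked to 406 genes. A region linked to a gene is near it and is not shown to control it. The gene lists were chosen with earlier results of these data known. The 6.07% of all regions used below takes in regions with little budesonide signal. Of the 6217 regions 2-fold higher with Bud than untreated in Ad-GFP cells, 645 were weakened, which is a larger share. Glucocorticoid-induced genes carried 18 weakened regions among their 183 linked regions, or 9.84%, against 6.07% of all regions, and 67 of the 183 were at least 2-fold higher, against 48.9% of all regions. The median differences of these 18 were -1.21 under Ad-GFP and 0.07 under Ad-IκBαΔN. By contrast the list of NF-κB-dependent inflammatory genes had 0 weakened regions among 100, and 91 of them were 2-fold higher. The AP-1 and small MAF list had 0 of 16, and markers of other cell types 0 of 7, too few regions to tell from the 6.07% of all regions.

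PER1, a repressor in the circadian clock and a glucocorticoid-induced gene, had both of its linked regions in the set. One lay 4.59 kb from the start, with 6.96, 102 and 29.0 in Ad-GFP cells, against 10.3, 85.0 and 125 in Ad-IκBαΔN cells. The other, 2.04 kb from the start and printed above, had 12.8, 224 and 109.9 against 9.96, 196 and 435. At both, IL1B+Bud was below Bud under the control virus and above it under the inhibitor.
HIF3A, a hypoxia-inducible factor gene with 1 linked region, had 8.29, 368 and 116 in Ad-GFP, against 11.0, 304 and 364 in Ad-IκBαΔN cells. SLC19A2, a thiamine transporter, had its 1 linked region over its untranslated sequence, with 7.05, 291 and 112 against 11.9, 240.0 and 396. Weakened regions inside TSC22D3, which encodes the glucocorticoid-induced leucine zipper, and SCNN1A, which encodes the alpha subunit of that sodium channel, had Ad-GFP differences of -1.28 and -1.52 and Ad-IκBαΔN differences of 0.67 and 0.59. These and the FKBP5 region described above were the highest of 9 weakened regions that lay inside a listed gene without being linked to it. The others had 0.42 and 0.09 in ZBTB16, -0.19 in LTBP1, -0.20 in ARHGEF28, -0.25 in FGD4 and -0.23 in a further FKBP5 region.
Genes of this list often had regions of both kinds. GADD45B, a stress-response gene, STOM, a membrane scaffold gene, KLF9, FOXO3, ZBTB16 and ZFP36 each had 1 weakened region and 1 that was 2-fold higher. The latter reached 4.75 at ZFP36 and 3.73 at STOM.

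**Figure D5:**
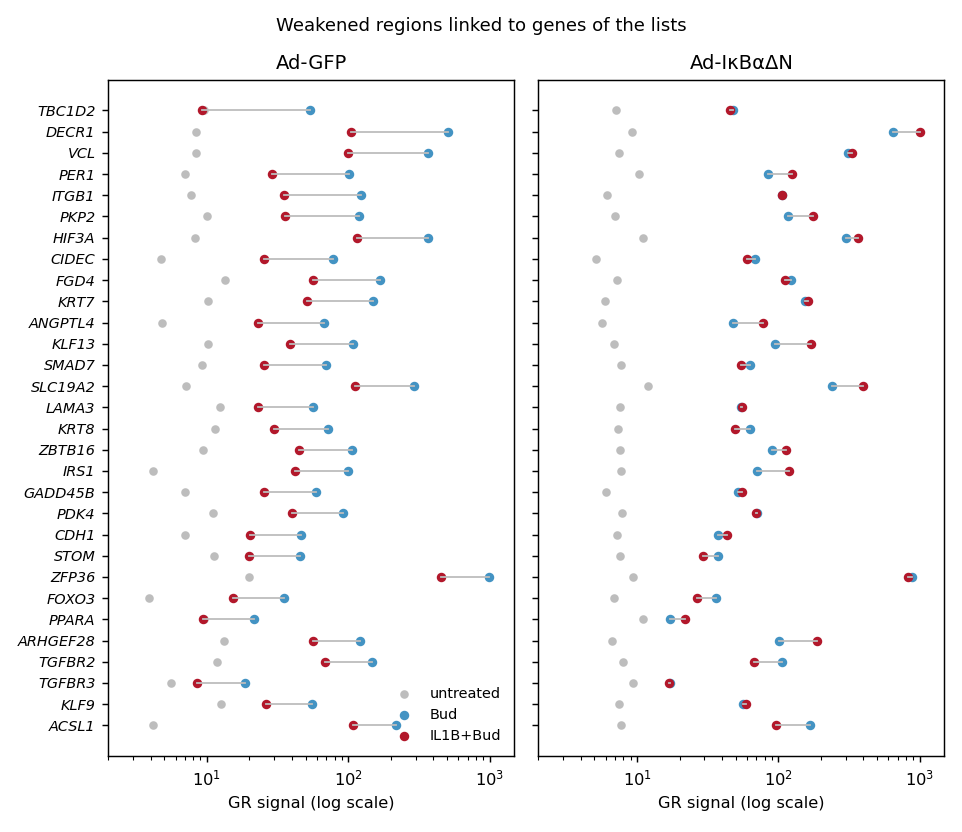
GR signal on a log axis (horizontal) at the weakened region with the lowest Ad-GFP response of each of 30 listed genes (vertical axis), in Ad-GFP cells (left) and Ad-IκBαΔN cells (right); grey, blue and red points are untreated, Bud and IL1B+Bud, 1 authors' value each. Red lies left of blue in every row of the left panel, by the rule, and falls on either side of blue in the right panel.

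Genes of lipid storage and fatty acid use had 8 weakened regions among 45, or 17.8%, against 6.07% of all regions. CIDEC, a lipid droplet gene, had both of its linked regions in the set. The region 1.21 kb from its start had 4.75, 77.7 and 25.4 in Ad-GFP, against 5.16, 68.2 and 60.3 in Ad-IκBαΔN cells. PDK4, a kinase that turns pyruvate away from oxidation, had 2 of 6, with Ad-IκBαΔN differences of -0.02 and -0.63. ACSL1, which activates long-chain fatty acids, was lower under either virus, with 218 and 108 in Ad-GFP, against 169 and 96.9 in Ad-IκBαΔN cells. PPARA, a nuclear receptor for fatty acids, had a weak region, with 21.4 and 9.42 against 17.1 and 21.9. CIDEC, ANGPTL4 and PDK4 are also on the glucocorticoid-induced list, so these counts overlap.

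Cytoskeleton and adhesion genes had 12 weakened regions among 92, or 13.0%, against 6.07% of all regions, with medians of -1.50 under Ad-GFP and 0.07 under Ad-IκBαΔN. The intron of VCL, the vinculin gene of focal adhesions, had 8.43, 367 and 100.3 in Ad-GFP, against 7.41, 311 and 332 in Ad-IκBαΔN cells. The intron of ITGB1, an integrin subunit gene, had 7.77, 122 and 35.1 against 6.13, 106 and 106. Both were near their Bud level with IL1B+Bud under the inhibitor. The region upstream of PKP2, a desmosome gene, exceeded it, with 116 and 175, after 119 and 35.4 in Ad-GFP. FGD4 had 3 weakened regions within 9.92 kb in an intron, all between -1.55 and -1.24 in Ad-GFP.

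In signalling pathways the counts were small, beside 6.07% of all regions. The TGF-β list had 3 weakened regions among 47, or 6.38%, at SMAD7, an inhibitor of the pathway, and at the receptor genes TGFBR2 and TGFBR3. The TGFBR2 region was lower under either virus, with 147 and 68.6 in Ad-GFP, against 107 and 67.7 in Ad-IκBαΔN cells. The insulin and FOXO list had 2 among 22, or 9.09%. At IRS1, the insulin receptor adaptor gene, the signals were 100.2 and 42.2 in Ad-GFP, against 70.6 and 119 in Ad-IκBαΔN cells. The KLF and C/EBP list had 2 among 44, or 4.55%, at KLF9 and KLF13, zinc-finger factors, and KLF13 had 108 and 38.5 against 94.3 and 169.6. The lung epithelial list had 3 among 41, or 7.32%, at the keratin genes KRT7 and KRT8.

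By position, 358 weakened regions (54.9%) lay in introns and 278 in intergenic sequence, against 48.8% and 48.0% of all regions. Within 1 kb of a gene start lay 10, or 1.53%, against 3.76% of all regions. Another weakened region lay within 50 kb for 122 weakened regions, or 18.7%, against 7.20% of all and 10.1% of kept regions. These 122 formed 55 runs, of which 9 had at least 3 regions. The largest run held 5 regions in 49.4 kb on chromosome 1 (206699652 to 206749066), 4 in MAPKAPK2, a kinase gene of the stress MAP kinase pathway, and 1 near IL19, a cytokine gene. Their Ad-GFP differences lay between -1.74 and -1.16, while the Ad-IκBαΔN differences ran from -0.96 to 0.81. All 4 regions linked to MAPKAPK2 had no GRE with at most 3 mismatches, and the IL19 region, with 2, was the one with the 0.81.

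Regions that were 2-fold higher with IL1B+Bud were rarely close by. One lay within 10 kb of 31 weakened regions, or 4.75%, against 19.5% of all regions. In these 31 pairs the median Bud signal in Ad-GFP cells was 76.0 at the weakened region and 7.32 at its neighbour, and the median IL1B+Bud signal 34.8 and 58.2. In 14 pairs the neighbour held a κB motif. The closest pair lay on chromosome 7, in sequence nearest to AGBL3. The weakened region (134919220 to 134919619) had 127 and 47.7, and its neighbour 0.777 kb away (134919997 to 134920396) 13.0 and 50.1. In Ad-IκBαΔN cells the values were 106 and 93.7 at the first and 17.1 and 18.8 at the second, so both moved little there.

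The authors had placed each region in a class. Of the weakened regions 535, or 82.1%, were in their decreasing class, against 27.8% of all and 46.3% of kept regions. In the unchanged class were 117, or 17.9%, against 31.8% of all regions, and in the increasing class 0, against 40.5%. The sources used here do not say how the classes were made. The 117 of the unchanged class had a median Ad-GFP Bud signal of 85.2, against 53.3 for the 535, and a median Ad-IκBαΔN difference of 0.13 against -0.16. At the limit of the rule, regions just inside were nearest to SNX29 and TCP11L1 and the 3 just outside to TNS3, SYT15 and GOLPH3, all at -1.0 when rounded. Their Ad-IκBαΔN differences were 0.39 and 0.48 inside and -0.49, 0.78 and -0.65 outside.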

How the data were processed

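GR signal was taken from the authors' deposited table, which gives a log2 binding intensity for 10740 regions of 400 bp in 6 groups, 1 value each. The table writes Ad-IκBα for Ad-IκBαΔN. The build was GRCh38 (hg38), per the submitters' processing notes, which also list, with no roles, DiffBind 3.2, MACS2 2.2.7.1, SAMtools, Bowtie2 2.4.4, FastQC 0.10.1 and bcl2fastq. Which of these made the intensities, how they were scaled and how the 2 libraries of a group were joined is not stated there. After 2 was raised to the deposited log2 value and 1 subtracted, the result times 400 fell on whole multiples of a step, within 0.0001 steps, in 5 of 6 groups. It was 1 in untreated Ad-GFP (all but 1 region) and in both Bud groups, 3 in Ad-GFP IL1B+Bud and 1.5 in Ad-IκBαΔN IL1B+Bud. The values were read as log2(signal + 1) of mean coverage, and depth per library is unknown. The planned linear models needed values per library and could not be run. The libraries of RELA and of input chromatin were not used.

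Regions were taken by the rule, and named as the 12 with the lowest Ad-GFP response, the 10 with the highest Bud signal, the 6 lowest and 6 highest responses in Ad-IκBαΔN, the lowest region of each listed gene, runs within 50 kb, pairs with a gaining region within 10 kb and the 3 regions on either side of the limit. Regions inside FKBP5, SCNN1A and TSC22D3, those with a full GRE and the C17orf80 region were chosen after their values were seen. A few items these rules name are not reported here. Members, gene lists and rules were chosen with earlier results of these data known. Genes are those with the nearest GENCODE 44 protein-coding start within 100 kb, or the nearest at any distance where a region is named by it. Motifs were searched. Alternatives were other limits, 4 rescalings of the groups, a pseudocount of 8, a filter keeping the upper 75% of regions by mean signal, and other GRE limits. Counting was tested on simulated data. Python 3.11.15, numpy 2.4.6, pandas 2.3.3, scipy 1.17.1, pysam 0.24.0 and matplotlib 3.10.9 were used.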

Additional observations from a re-analysis of the deposited data

Results flagged for a closer look

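At 16 weakened regions GR signal with IL1B+Bud was at least 2-fold below Bud in Ad-GFP cells and at least 2-fold above it in Ad-IκBαΔN cells. The Ad-GFP side of this is fixed by the rule, and with 1 value per group the difference between the viruses was not tested. The regions nearest GJE1, PTPRO, ASPH, NKX1-1, ETV3, PER1, FAM156A and RAB20 had log2 differences in Ad-IκBαΔN cells of 1.51, 1.33, 1.33, 1.23, 1.21, 1.15, 1.12 and 1.10. Those nearest SLCO4A1, SLC25A25, PDPR, CDC123, BMP4, SH3BP4, NFIC and PTPN1 had 1.10, 1.10, 1.08, 1.06, 1.05, 1.05, 1.04 and 1.03. Among them, the region linked to RAB20, in an intron of the collagen gene COL4A2, had 3.88, 163 and 50.8 in Ad-GFP, against 14.4, 239 and 515 in Ad-IκBαΔN cells for untreated, Bud and IL1B+Bud, so its untreated and Bud values also differed between the viruses. The region in CDC123, with 3 GRE matches, had 288 and 98.7 against 309 and 643 for Bud and IL1B+Bud. The count of 16 fell to between 0 and 10 with the other scalings and the pseudocount of 8.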

How the results depend on the processing

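No paired analysis was possible because the table holds 1 value per group, which also left no replicate to leave out. The count of weakened regions, 652, became 1025 with the looser limit of -0.8 and 327 with the stricter limit. It became 3443 with each group shifted to the same all-region median, 1750 with the unchanged class as the reference, 2888 after quantile normalization, 4695 with the steps divided out, 379 with a pseudocount of 8 and 411 with the Ad-IκBαΔN Bud baseline. The last, the GRE share in rechosen regions and the counts in Ad-IκBαΔN cells were added after seeing the data. With the 652 regions held, the median Ad-IκBαΔN difference of IL1B+Bud from Bud was -0.22, -0.19 and -0.66 after the 2 shifts and the steps. The median virus difference, 1.19, was 2.11, 1.60, 1.79, 2.07 and 0.97 after the 2 shifts, quantile normalization, the steps and the pseudocount, and 1.09 and 1.43 with the looser and the stricter limit. The median of Bud against untreated in Ad-IκBαΔN, 2.58, was 1.22, 0.74, 1.18 and 1.89 after the 2 shifts, quantile normalization and the pseudocount, and 2.72 with the stricter limit. The GRE share, 32.7%, was 7.06% with at most 1 mismatch, against 3.43% of all and 5.33% of kept regions. With at most 3 mismatches it was 75%, against 45.1% of all and 57.7% of kept regions. In regions rechosen after the first shift it was 27.1%, and in those rechosen with the steps divided out 24.8%. Both lay nearer the 14.7% of all regions than the 32.7% did. Regions 2-fold lower in Ad-IκBαΔN, 24, numbered 38, 175 and 15 after the first shift, the steps and the pseudocount. These were 5.83%, 26.8% and 2.30% of the 652, against 1.65%, 10.0% and 0.41% of all regions. Those 2-fold higher, 16, numbered 6, 10, 3, 0 and 10 after the 2 shifts, quantile normalization, the steps and the pseudocount. With the steps divided out, the median difference of IL1B+Bud from Bud turned from 0.92 to -0.61 in Ad-GFP and from 0.26 to -0.29 in Ad-IκBαΔN over all regions, and from 0.32 to -0.25 in Ad-IκBαΔN at weakened regions with at most 1 GRE mismatch. Over all regions in Ad-GFP it was also -0.12 and -0.13 after the first shift and quantile normalization. Of named regions, 13 of 60 in Ad-GFP and 7 of 13 in Ad-IκBαΔN came within 2-fold under some setting, and none of them changed sign. The cause of these changes was not tested. Scale and unknown depth limit every distance from 0, and 1 value per group leaves no error.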

Other observations

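The share of regions that were weakened differed between chromosomes. It was 14.8% on the X chromosome (34 of 230 regions), 11.5% on chromosome 13 (22 of 192) and 3 of 6 regions on the Y chromosome, against 6.07% of all regions and 3.76% on chromosome 10. The untreated Ad-GFP signal of the weakened regions was low on these chromosomes, with medians of 4.97 on X, 5.40 on 13 and 1.23 on Y beside 6.88 over all weakened regions. Medians similar to those on X and 13 were also seen on chromosomes 18, 6 and 4, at 4.85, 4.87 and 5.05. The shares of weakened regions there were 8.93%, 7.88% and 7.16%. The part of the lower untreated signal in these shares was not tested.

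The 7 weakened regions with a κB motif were nearest CTDSPL, OPRL1, TOB2, NFIC, SS18L2, PAPPA and BEST2. In Ad-IκBαΔN cells 5 of the 7 had more signal with IL1B+Bud than with Bud, beside 277 of all 652 weakened regions and 7255 of all 10740 regions. The highest were NFIC, a nuclear factor I gene, at 1.04, TOB2 at 0.94 and OPRL1, an opioid-receptor-family gene, at 0.93. CTDSPL and SS18L2 stood at -0.59 and -0.45. CD36, which encodes a fatty acid transporter, had 3 weakened regions, at -1.48, -1.03 and -1.03 under Ad-GFP, against -0.76, 0.69 and 0.27 under Ad-IκBαΔN.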
